A study of Mus musculus with 9 samples.

Results

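Foxa and Tox genes were followed in cerebella of mice that carry SmoA1, an activated form of the Hedgehog receptor component Smoothened, with and without Pycard. The 7 genes Foxa1, Foxa2, Foxa3, Tox, Tox2, Tox3 and Tox4 were chosen from measured levels: Foxa2 and Tox3 stood far above the common pool, and the other members of their families were added by symbol. The array had a feature for 6 of the 7 genes, among 19087 named genes, and 17 of its 45220 features carry their symbols. Foxa2 has 10 of these features, Tox and Tox4 have 2 each, and Foxa1, Foxa3 and Tox3 have 1 each. Tox2 has none, so its level was not analysed here.

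RNA came from 4 Pycard knockout and 5 Pycard wild-type samples of cerebellum, all of the SmoA1 strain and all taken at postnatal day 20. On every array the sample was labelled with Cy5 and a pool of wild-type cerebella from postnatal day 16 with Cy3, with no dye exchange. Values are log2 ratios of Cy5 over Cy3, and a level in what follows is always such a ratio over the pool, not an amount of RNA. SmoA1 and the age gap separate every sample from the pool together, and their parts in a level cannot be told apart. The promoter that drives SmoA1, the way Pycard was deleted, the strain background of the pool, and whether each array is a separate animal are not stated in the labels. The spread behind each p-value is that between these samples, and it may be technical in part or in whole. Pycard encodes ASC, the adaptor protein of inflammasomes.

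Foxa proteins are forkhead factors that can bind their sites in closed chromatin. In the embryo Foxa2 marks the floor plate of the neural tube, where Sonic hedgehog induces it, and together with Foxa1 it acts in midbrain dopamine progenitors. All 3 Foxa genes are known from endoderm and liver. Tox proteins carry a single high mobility group (HMG) box that binds DNA. Tox is known from T cell development, Tox2 from lymphocytes, Tox3, from human and rat cells, as a partner of the coactivators Cited1 and Crebbp, and Tox4 as a subunit of the PTW/PP1 phosphatase complex.

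The labels and the arrays were checked before the members were read. Pycard had log2 ratios of -2.83, -2.43, -1.48 and -2.83 on knockout arrays 1 to 4 and of 0.90, 1.17, 0.72, 1.28 and 1.32 on wild-type arrays 1 to 5, a difference of -3.47 (SE 0.292, limma adjusted p = 0.0131). The groups lay apart on every array, but the call was lost with the replicate number as a block (difference -3.41, SE 0.354, limma adjusted p = 0.751), on the 6 arrays whose titles end in a letter (difference -3.18, limma adjusted p = 0.614) and without knockout 1 (difference -3.33, limma adjusted p = 0.0687). Array medians lay between 0 and 0.013. Ratios to a pool of the same tissue do not show how strongly a cerebellar marker is expressed, so the tissue label was not tested against markers. Knockout 1 stands apart: over the 142 named genes with a mean log2 ratio above 2 on the 9 arrays, its ratio was a median of 32.9% of the gene's mean, against 71.7% on knockout 4 and 91.7% to 137% on the other 7 arrays. The Foxa2 and Tox3 differences, the relations and several list medians are given with and without it. Differences of single list genes are given over all arrays only, and some of them rest in part on knockout 1. Titles of 6 arrays end in a letter (knockout 1 to 3, wild-type 1 to 3) and those of 3 arrays in a number (knockout 4, wild-type 4 and 5), and the labels do not say what this stands for. Spot intensities were not used here, so a ratio from a dim or saturated spot cannot be told from any other.

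Promoter windows of the 2 genes with high levels are shown because these genes carry the results on levels. They come from RefSeq on build GRCm38.p6, with 250 bases before and 50 after a transcript start, 5′ to 3′ on the gene's strand. Capitals mark the CCAAT box (CCAAT) and the GC box (GGGCGG) on either strand, the only searched motifs present in either window. Foxa2 has 3 windows, and the one shown is chr2:148046920-148047219, minus strand, at the annotated start of the gene. The Tox3 window is chr8:90348203-90348502, minus strand, at a transcript start inside the annotated gene.
Foxa2: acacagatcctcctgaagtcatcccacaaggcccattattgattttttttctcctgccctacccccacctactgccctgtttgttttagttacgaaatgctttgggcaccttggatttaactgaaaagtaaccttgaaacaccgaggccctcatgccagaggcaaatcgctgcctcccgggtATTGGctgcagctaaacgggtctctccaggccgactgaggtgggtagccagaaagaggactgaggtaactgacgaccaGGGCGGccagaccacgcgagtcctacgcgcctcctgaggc
Tox3: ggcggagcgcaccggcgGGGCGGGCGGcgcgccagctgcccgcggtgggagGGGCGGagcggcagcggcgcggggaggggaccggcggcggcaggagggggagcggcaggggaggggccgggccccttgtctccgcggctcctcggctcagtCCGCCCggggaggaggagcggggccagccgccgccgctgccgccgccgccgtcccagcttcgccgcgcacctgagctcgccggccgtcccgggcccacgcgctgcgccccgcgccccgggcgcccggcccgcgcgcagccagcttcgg

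The windows differ in composition, with 54.3% G and C for Foxa2 and 85.3% for Tox3, beside a median of 52.7% over 32851 windows of 300 bases. The Foxa2 window shown holds 1 CCAAT box and 1 GC box, and the Tox3 window holds 4 GC boxes, 2 of them overlapping, and no CCAAT box. The Foxa2 windows not shown have 64.0% and 51.7% G and C, with 2 GC boxes and 1 GC box, and no CCAAT box. Of 12 windows of the family, from 6 of the 7 genes (Tox has none in the table), 11 held a GC box and 6 a CCAAT box, beside 35.7% and 37.4% of all windows. Tox2 supplied 5 of the 12 windows and 3 of the 6 with a CCAAT box, 2 of these starting 1 base apart. The motif of the Hedgehog effector Gli (GACCACCCA) was in 0 of the 12 and in 0.253% of all windows. The letters of the E2F motif (TTTCCCGC or TTTGGCGC) were in 0 of the 12 and in 1.56% of all windows. A forkhead motif (TGTTTAC or TATTTAC) was in 1 of the 12, that of Foxa1, and in 6.54% of all windows. All motifs were searched on both strands, and a match is only a match of letters.

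Foxa2 (chr2:148042877-148046969) had the highest mean level of all 19087 named genes, 5.38 over the 9 arrays. Its level, the average of 10 features, was 1.03, 5.03, 5.55 and 6.20 on knockout arrays 1 to 4, against 5.85, 5.72, 5.65, 6.69 and 6.68 on wild-type arrays 1 to 5. Knockout 1 lay far below every other array, knockout 4 lay within the wild-type range, and the groups overlapped. By the median of the features they also overlapped, with knockout 4 at 5.69 and wild-type 2 at 5.63. By the last 5 features in the order of the table, a division chosen after the values were seen, they did not. The margin was narrow, with knockout 3 at 5.60 and wild-type 3 at 5.66. The knockout mean was 4.45 ± 2.33 (SD, n = 4), 21.9-fold over the pool, and the wild-type mean 6.12 ± 0.524 (SD, n = 5), 69.5-fold over the pool. These levels chose the gene and are a description. On knockout 1 Foxa2 was 2.05-fold over the pool, and on the other 8 arrays between 32.8-fold and 103-fold. The 103-fold belongs to wild-type 4, whose features had an average of 6.69 and a median of 6.11. In whole tissue, fewer cells of a type and less RNA per cell cannot be told apart.

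**Figure D1:**
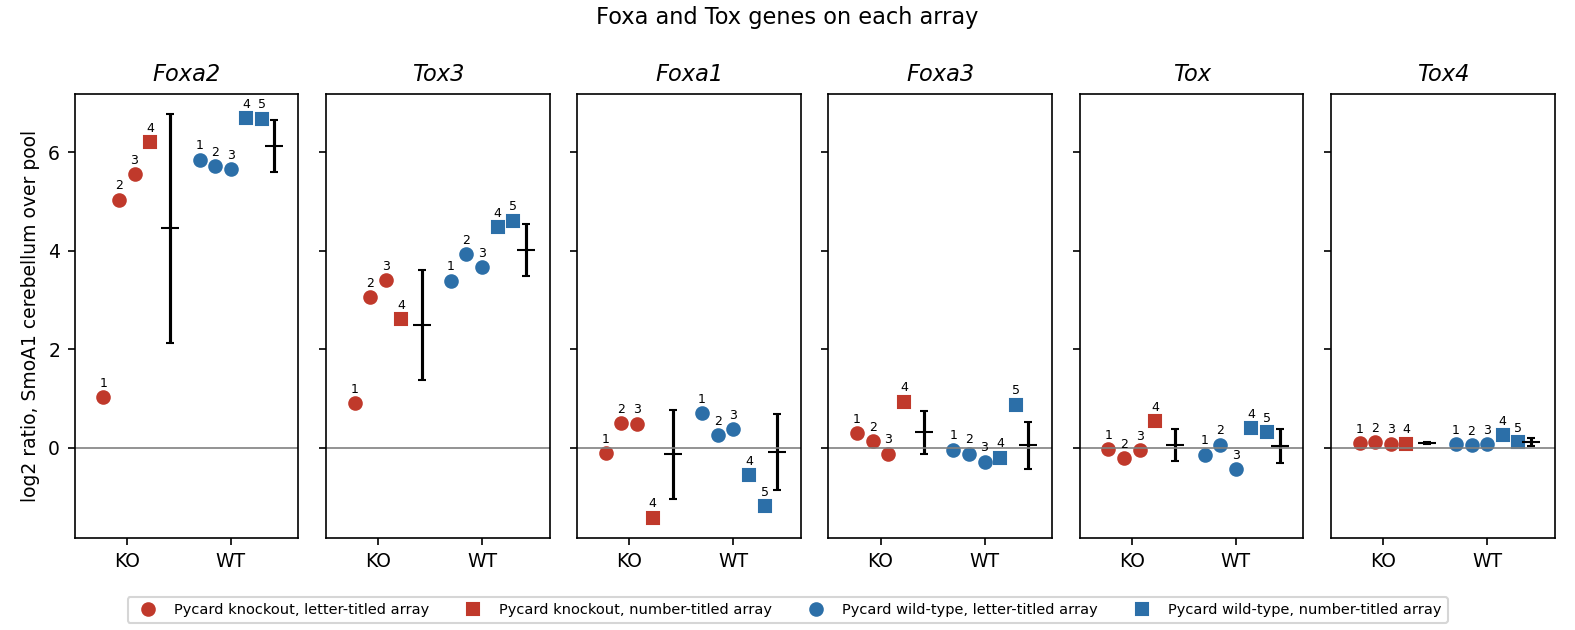
Log2 ratio of SmoA1 cerebellum over the day 16 pool for the 6 measured Foxa and Tox genes, with 1 numbered point per array, Pycard knockout (KO) left of Pycard wild-type (WT), and bars for mean and SD. Foxa2 and Tox3 lie above 0 on all 9 arrays and lowest on KO 1, at 1.03 and 0.90, while the other genes lie between -1.42 and 0.93.

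The Foxa2 difference between genotypes did not pass the test over all values. It was -1.67 (SE 0.966, 95% interval -3.87 to 0.54, limma adjusted p = 0.932). Without knockout 1 the knockout mean was 5.59 ± 0.584 (SD, n = 3), and the difference was -0.53 (SE 0.368, 95% interval -1.38 to 0.33, limma adjusted p = 1.0). Foxa2 on knockout 1 differed by -4.89 from its mean on the other 8 arrays (5.92), the 2nd lowest such gap of the 19087 named genes. The ratio there was 17.4% of the mean log2 ratio of the others, and for the 46 named genes above 2 on each of the other 8 arrays this share ran from -0.771% to 54.0%.

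The 10 Foxa2 features carry 1 transcript accession and agreed on which array was low. On knockout 1 they ran from 0.755 to 1.286, and on the other 8 arrays none was under 4.066. Pearson's r between features over the 9 arrays had a median of 0.927 over the 45 feature pairs and ran from 0.636 to 0.993, as a description of features that share their arrays.

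Features disagreed most on the arrays with a number in the title. On knockout 4 they ran from 4.995 to 10.915 with a median of 5.69, on wild-type 4 from 5.796 to 8.795 with a median of 6.11, and on wild-type 5 from 5.888 to 7.994 with a median of 6.08. The SD over features was 1.76, 1.06 and 0.861 on these arrays, against 0.116 to 0.498 on the letter-titled arrays, and the median SD over the 132 accessions with exactly 10 features was between 0.0812 and 0.157 on every array. The first 5 features in the order of the table averaged 7.08 on knockout 4, 7.48 on wild-type 4 and 7.31 on wild-type 5, and the last 5 averaged 5.32, 5.90 and 6.06 on the same arrays. This division of the features was chosen after their values were seen. With the median of the features in place of the average, the Foxa2 difference between genotypes was -1.54. Taken singly the 10 features differed by -2.13 to -1.23, and none passed (limma adjusted p = 0.925 to 0.959 over all features).

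**Figure D2:**
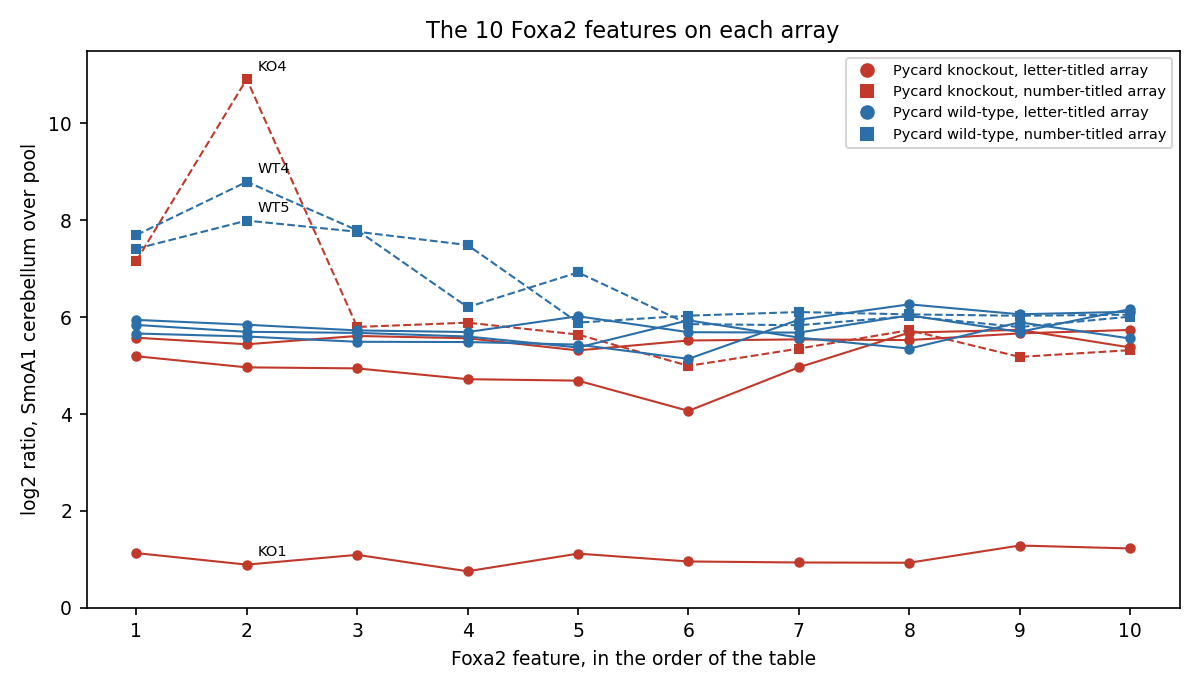
Log2 ratio over the pool of each of the 10 Foxa2 features, in the order of the table, with 1 line per array (red knockout, blue wild-type, dashed lines with squares for number-titled arrays). The number-titled arrays spread up to 10.915 over the first features, while all 10 features of KO 1 stay under 1.29.

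Foxa1 and Foxa3, the other Foxa genes, had means near the level of the pool, with single arrays down to -1.42 for Foxa1 and up to 0.93 for Foxa3. Foxa1 (chr12:57540628-57548029) was at -0.11, 0.50, 0.49 and -1.42 on knockout arrays 1 to 4, against 0.70, 0.25, 0.37, -0.56 and -1.19 on wild-type arrays 1 to 5. The difference between genotypes was -0.047 (SE 0.513, 95% interval -1.22 to 1.13, limma adjusted p = 1.0). Its 3 lowest arrays were the 3 number-titled ones. Foxa3 (chr7:19013283-19023539), which lies 1210 measured genes from Pycard on the same chromosome, was at 0.30, 0.13, -0.12 and 0.93 on knockout arrays, against -0.037, -0.12, -0.28, -0.20 and 0.87 on wild-type arrays. Knockout 4 and wild-type 5 were high, and the difference was 0.26 (SE 0.29, 95% interval -0.40 to 0.92, limma adjusted p = 0.952).

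Tox3 (chr8:90247110-90349029) ranked 14 of the 19087 named genes, with a mean level of 3.34 over the 9 arrays. It was at 0.90, 3.05, 3.40 and 2.61 on knockout arrays 1 to 4, against 3.39, 3.93, 3.66, 4.48 and 4.61 on wild-type arrays 1 to 5. The groups overlapped by 1 array each way, knockout 3 lying just above wild-type 1. The knockout mean was 2.49 ± 1.11 (SD, n = 4), 5.61-fold over the pool, and the wild-type mean 4.01 ± 0.524 (SD, n = 5), 16.1-fold over the pool. As with Foxa2, these levels chose the gene.

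The difference between genotypes in Tox3 was -1.52 (SE 0.511, 95% interval -2.69 to -0.36), with an unadjusted p of 0.0166 in limma and an adjusted p = 0.917. Without knockout 1, which was at 1.86-fold over the pool, the knockout mean was 3.02 ± 0.395 (SD, n = 3) and the difference -0.99 (SE 0.33, 95% interval -1.76 to -0.22, limma unadjusted p = 0.0183, adjusted p = 1.0). The Tox3 gap of knockout 1 to the mean of the other 8 arrays was -2.74, the 14th lowest of the named genes. Within the letter-titled arrays the difference was -1.21, and within the number-titled arrays, with knockout 4 alone against wild-type 4 and 5, it was -1.93. Tox3 has 1 feature, so no other feature bears on it.

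Tox and Tox4 lay close to the pool on every array. Tox (chr4:6686353-6991557) was at -0.027, -0.21, -0.053 and 0.54 on knockout arrays 1 to 4, against -0.14, 0.058, -0.44, 0.39 and 0.32 on wild-type arrays 1 to 5. The 3 number-titled arrays were its highest, and the genotypes differed by 0.024 (SE 0.216, 95% interval -0.47 to 0.52, limma adjusted p = 1.0). Its 2 features correlated at r = 0.52 over the 9 arrays.

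Tox4 (chr14:52279146-52295509) varied least of the 6 genes, at 0.092, 0.11, 0.085 and 0.085 on knockout arrays, against 0.072, 0.056, 0.077, 0.25 and 0.11 on wild-type arrays. The difference was -0.019 (SE 0.0798, 95% interval -0.20 to 0.16, limma adjusted p = 0.991). Its 2 features opposed each other over the 9 arrays (r = -0.893), with means of 0.26 in knockout and 0.28 in wild-type for feature 3652, and -0.068 in knockout and -0.057 in wild-type for feature 28779. The small spread of Tox4 is thus that of an average of opposed features.

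By mean level over the 9 arrays the order was Foxa2 at 5.38 ± 1.72, Tox3 at 3.34 ± 1.12, Foxa3 at 0.16 ± 0.451, Tox4 at 0.10 ± 0.0565, Tox at 0.049 ± 0.312 and Foxa1 at -0.11 ± 0.778 (SD over arrays, n = 9). Foxa2 was above Tox3 on every array, by little on knockout 1. The last 4 did not differ from each other beyond their spread. A mean of at least 1 with all 9 arrays above 0 was met by 2 of the 6 members, Foxa2 and Tox3, and by 2.45% of all named genes. The members were chosen on these levels, so nothing is read from that count.

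Among the wider families, few genes came near Foxa2 or Tox3 in level over the pool. Of 37 other measured forkhead genes the highest were Foxm1, a driver of mitotic transcription, with means of 1.69 in knockout and 2.67 in wild-type, Foxo6 (1.25 in knockout, 2.15 in wild-type) and Foxi1 (0.76 in knockout, 0.98 in wild-type). Of 37 other measured HMG box genes the highest were Hmgb2, a chromatin protein of dividing cells (2.02 in knockout, 3.24 in wild-type), Sox11, a factor of immature neurons (1.56 in knockout, 2.48 in wild-type), and Hmgb3 (1.12 in knockout, 1.76 in wild-type). The lowest of each family were Foxo1, with a mean of -0.73 over the 9 arrays, and Sox10, a factor of oligodendrocytes, at -0.65. Genes with the smallest unadjusted p between genotypes were Foxo6 (difference -0.90, SE 0.233, limma adjusted p = 0.917), Foxo1 (0.33), Hmgb2 (-1.22) and Sox18 (-0.81), and none passed. The Foxo6 groups did not overlap, as in 2.14% of all named genes.

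**Figure D3:**
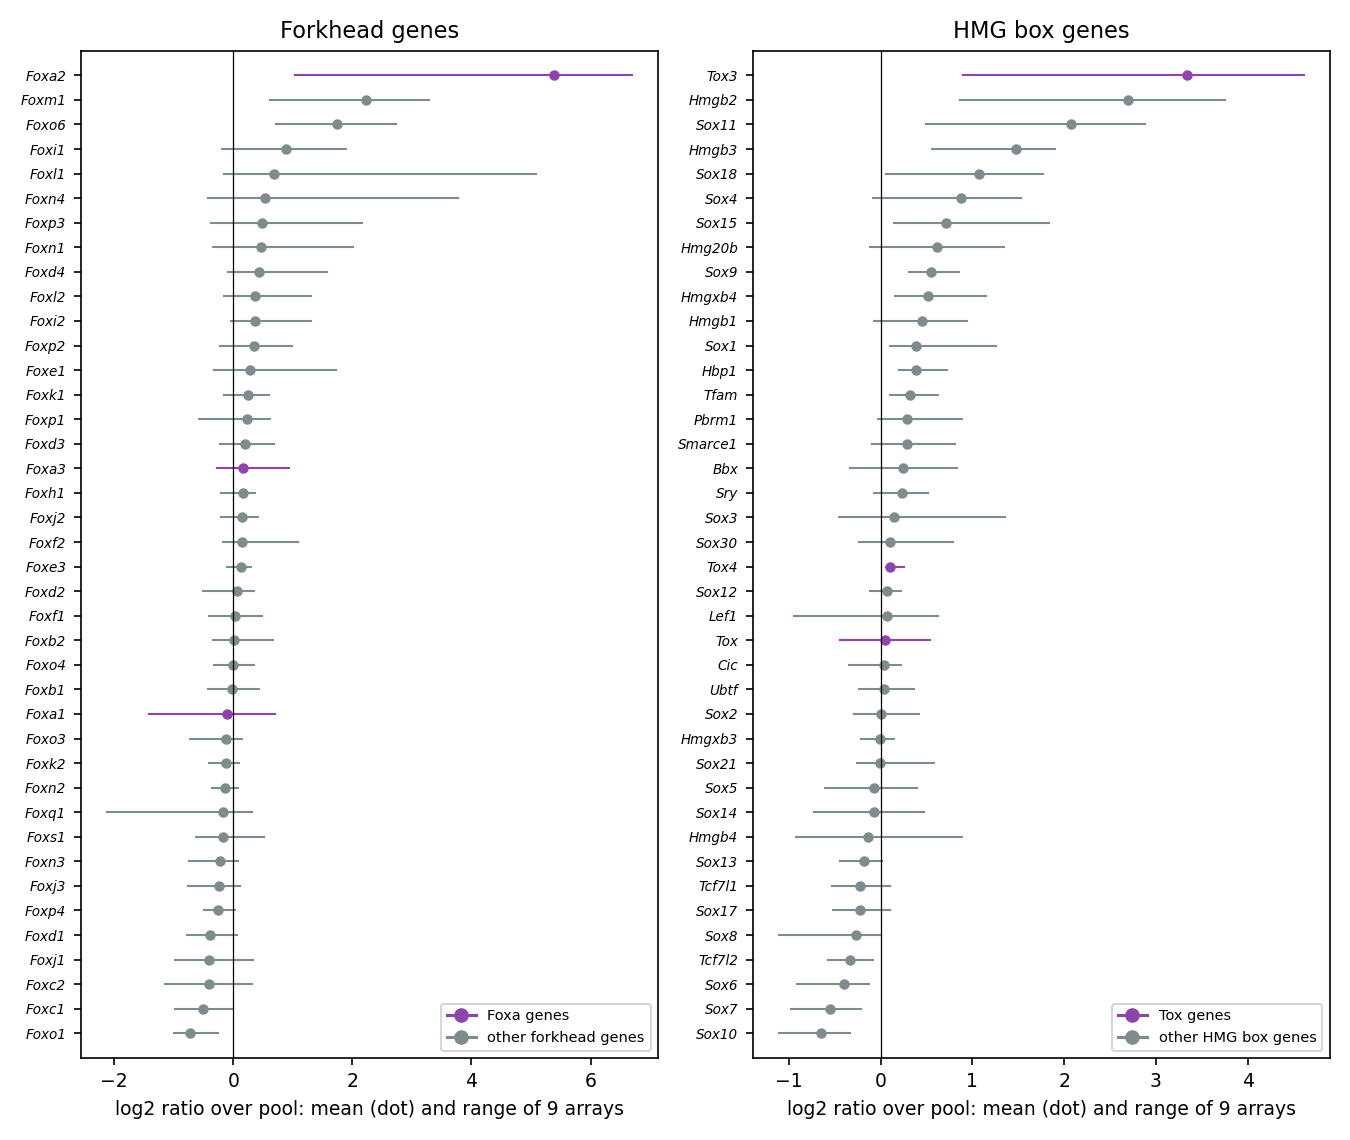
Log2 ratio over the pool of every measured forkhead gene (left) and HMG box gene (right), with the mean (dot) and the range (line) over 9 arrays, Foxa and Tox genes in purple. Foxa2 (5.38) and Tox3 (3.34) have the highest means of their families, ahead of Foxm1 (2.23) and Hmgb2 (2.70), and the other Foxa and Tox genes lie near 0.

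No member passed the comparison of knockout with wild-type, in which 5 of 30654 values passed (0.0163%). Of the 6 members 1, Tox3, had an unadjusted p under 0.05 in limma, beside 5.4% of all values. Groups did not overlap in 0 of the 6 members, beside 2.14% of named genes. With the replicate number as a block 0 values passed, and the differences were -1.52 (SE 0.912, limma adjusted p = 0.751) for Foxa2 and -1.38 (SE 0.418, limma adjusted p = 0.751) for Tox3. Between arrays of the same number, the knockout minus wild-type difference in Foxa2 was -4.82, -0.69, -0.10 and -0.50 for numbers 1 to 4, and in Tox3 it was -2.49, -0.88, -0.26 and -1.87. Both genes were thus lower in knockout in 4 of 4 same-numbered pairs, by little in pair 3. The labels state no such pairing, and wild-type 5 has no partner. How many other genes were lower in 4 of 4 was not counted, so nothing is read from that count. Number-titled and letter-titled arrays did not overlap in 3 of the 6 members, beside 16.5% of named genes. On number-titled arrays Foxa1 ran from -1.42 to -0.56, Foxa2 from 6.20 to 6.69 and Tox from 0.32 to 0.54. On letter-titled arrays Foxa1 ran from -0.11 to 0.70, Foxa2 from 1.03 to 5.85 and Tox from -0.44 to 0.058. The Tox separation held for feature 14627 but not for feature 25219. On feature 25219, wild-type 5 at 0.02 lay below letter-titled wild-type 1 at 0.092. The Foxa2 separation held for the average of its 10 features and for the first 5 in the order of the table. Those first 5 averaged 7.08 to 7.48 on number-titled arrays and at most 5.85 on letter-titled ones. The separation did not hold for the median or the last 5 features. By the median, knockout 4 at 5.69 lay below letter-titled wild-type 1 at 5.79, and by the last 5 it lay at 5.32 against 5.85.

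None of the listed genes known to act with Foxa2 in other tissues had a mean near its 5.38, the highest of all named genes. Of 19 measured genes of the floor plate and ventral neural tube, 0 met the level rule (mean at least 1, all arrays above 0). That rule was met by 2.45% of all named genes, so 0 in a list of this size says little. A mean below 0 was found for 12 of the 19, beside 9185 of the 19087 named genes. The highest mean in the list was 0.43. Farthest from the pool were Nkx2-9 (-0.97 in knockout, -1.53 in wild-type), Corin (-1.17 in knockout, -1.32 in wild-type) and Spon1 (-0.53 in knockout, -0.99 in wild-type). The wild-type mean of Spon1 rests on wild-type 4 (-2.69), with the other wild-type arrays between -0.87 and -0.24. Between genotypes 10 were lower and 9 higher, with a median difference of -0.0019, which ran from -0.028 to 0.17 with 1 array left out. Nkx6-2 had the smallest unadjusted p in that list (difference 0.57, SE 0.126, limma adjusted p = 0.917).

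Of 13 measured genes of midbrain dopamine neurons, 0 met the same rule, beside 2.45% of all named genes. En1, a midbrain and hindbrain factor, averaged -1.58 in knockout and -1.35 in wild-type, Th, the rate-limiting enzyme of dopamine synthesis, -0.85 in knockout and -1.06 in wild-type, and Pitx3, a dopamine neuron factor, 0.48 in knockout and 0.77 in wild-type. The transporters Slc6a3 (-0.87) and Slc18a2 (-0.57) had the smallest unadjusted p for the difference and did not pass. The Slc6a3 difference rests on wild-type 1 (2.06) and wild-type 5 (1.53), with all other arrays between -0.39 and 0.05. In the list 7 genes were lower and 6 higher, with a median difference of -0.039, and 0.053 without wild-type 4.

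Of 17 measured genes of endoderm and liver, 0 met the rule, beside 2.45% of all named genes. Ttr, the thyroxine carrier made by liver and by choroid plexus, was the farthest from the pool and ran from -4.63 to 0.42 over knockout arrays, against -4.48 to 1.08 over wild-type arrays. Onecut1 averaged 0.98 in knockout and 1.0 in wild-type, and G6pc 0.96 in knockout and 0.79 in wild-type. The G6pc means rest on knockout 3 (2.5) and wild-type 3 (3.31), with the other arrays between -0.14 and 0.76. Between genotypes 5 were lower and 12 higher, with a median difference of 0.10, which was -0.034 without knockout 3 and 0.22 without knockout 4. The smallest unadjusted p belonged to Apoa2 (difference 0.59) and Tff3 (0.34), without passing.

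Partners of the Tox proteins lay near the pool. Of 12 measured genes, among them the PTW/PP1 subunits, 10 were lower and 2 higher in knockout with a median difference of -0.079 (-0.17 without knockout 4, -0.14 after quantile normalization), and 0 passed. Cited1, a transcriptional coactivator that binds human TOX3, averaged 0.61 ± 0.161 (SD, n = 4) in knockout and 1.01 ± 0.346 (SD, n = 5) in wild-type. Crebbp averaged 0.38 in knockout and 0.31 in wild-type, the phosphatase subunit Ppp1cb 0.20 in knockout and 0.23 in wild-type, and Hdac1 0.0055 in knockout and 0.34 in wild-type. The Hdac1 groups lay apart, as in 2.14% of all named genes, and its difference did not pass the test (-0.33, limma adjusted p = 0.917). Of 15 measured lymphocyte genes 7 were lower and 8 higher, with a median difference of 0.0065, and from -0.11 to 0.14 with 1 array left out. The T cell receptor subunit Cd3e stood at 2.14 on knockout 3 and 4.0 on wild-type 3 and between -0.15 and 0.32 on the other arrays. Eomes averaged -1.44 in knockout and -1.07 in wild-type.

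Lists of dividing and progenitor cells were lower in knockout by counts and by array, with 0 members called. All 15 measured mitosis genes were lower, with a median difference of -1.26, beside a median of 0.0079 and 14660 lower of 30654 over all values. Their mean was 0.93, 2.47, 2.76 and 1.86 on knockout arrays 1 to 4, against 2.81, 3.15, 3.0, 3.85 and 3.41 on wild-type arrays 1 to 5. The groups do not overlap, by a narrow margin between knockout 3 and wild-type 1. The mitotic kinases Aurkb (-1.63) and Plk1 (-1.19), the kinesin Kif2c (-1.37), Birc5 of the chromosomal passenger complex (-1.26) and the cycling marker Mki67 (-1.17) were among them. Without knockout 1 the median difference was -0.89.

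Granule neuron progenitors divide under Hedgehog signalling, and of 14 measured genes of this cell type 11 were lower and 3 higher, with a median difference of -0.53, and -0.38 without knockout 1. Their mean was 0.11, 0.90, 0.98 and 0.80 on knockout arrays, against 1.07, 1.11, 1.02, 1.46 and 1.55 on wild-type arrays, again without overlap, by a narrow margin between knockout 3 and wild-type 3. Nhlh1 and Insm1, factors of newborn neurons, differed by -0.79 and -0.89, the growth regulator Mycn by -1.17 and the chemokine receptor Cxcr4 by -1.21. Of 19 measured Hedgehog pathway genes and targets 15 were lower and 4 higher, with a median difference of -0.31, and -0.24 without knockout 1. Among them were Ccnd2 (-1.09) and Sfrp1 (-1.21), each lowest on knockout 1, at 0.59 and -0.069. Markers of mature cells moved the other way by counts. Higher in knockout were 14 of 15 measured genes of mature granule neurons (median difference 0.20), 9 of 10 of Purkinje cells (0.45), 9 of 10 of interneurons (0.34), 10 of 11 of oligodendrocytes (0.38), 7 of 10 of astrocytes and Bergmann glia (0.22) and 8 of 10 of endothelium and meninges (0.10). The oligodendrocyte list mean also did not overlap, higher in knockout, again by a narrow margin (knockout 3 at -0.67, wild-type 5 at -0.72). Lower were 8 of 8 of microglia (-0.51) and 6 of 9 of choroid plexus and ependyma (-0.18). After quantile normalization the medians were 0.084 for granule neurons, 0.19 for interneurons, 0.23 for oligodendrocytes, 0.083 for astrocytes, -0.01 for endothelium and -0.61 for choroid plexus. With 1 array left out the granule neuron median was 0.083 without wild-type 4. Without knockout 1 the median was 0.34 for Purkinje cells, 0.27 for interneurons and -0.37 for microglia. The endothelium median was 0.043 without knockout 4, 0.053 without wild-type 1 and 0.033 without wild-type 3. The choroid plexus median turned positive without knockout 1 (0.17), knockout 2 (0.12) or wild-type 2 (0.13). The part of these cell types in the Foxa2 and Tox3 values was not tested beyond the relations that follow.

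**Figure D4:**
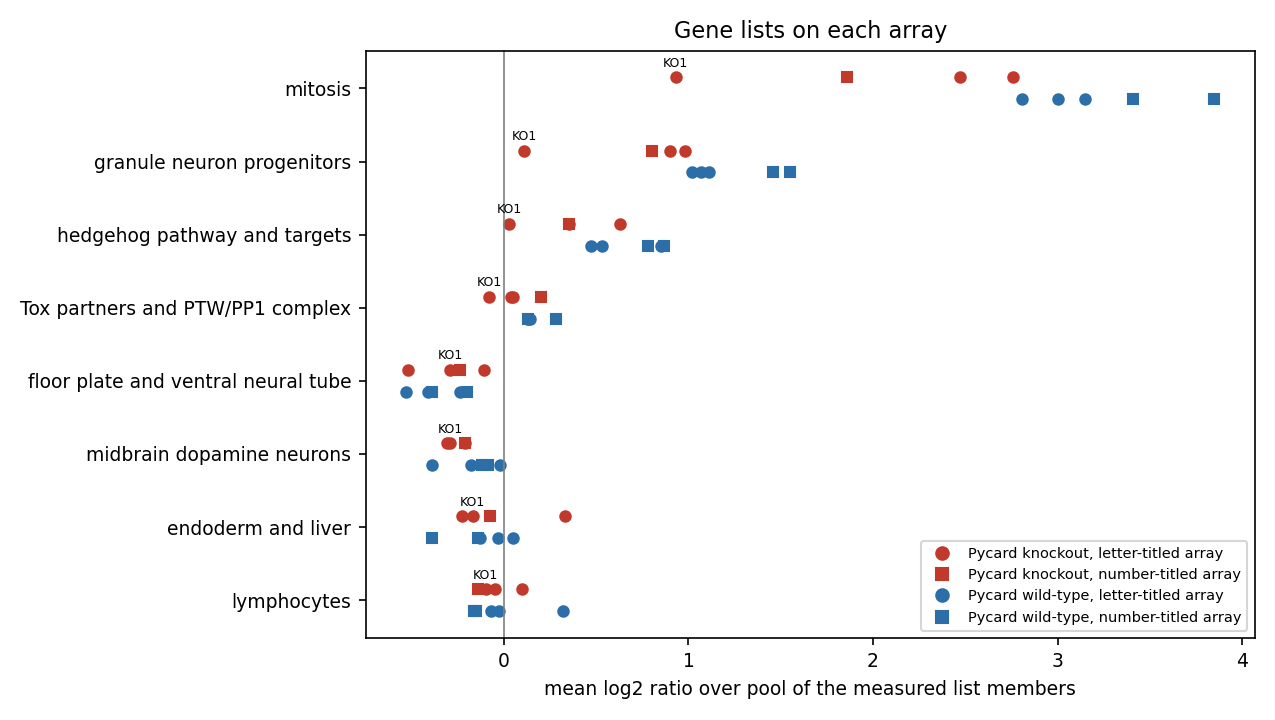
Mean log2 ratio over the pool of the measured members of 8 gene lists, with 1 point per array, knockout (red) above wild-type (blue) in each row. The mitosis list lies between 0.93 and 3.85 with KO 1 lowest, while the floor plate, midbrain dopamine, endoderm and lymphocyte lists lie between -0.53 and 0.33 on all arrays.

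Foxa2 and Tox3 were set against Gli1, a direct Hedgehog target, and the means of the Hedgehog, progenitor and mitosis lists over the 9 arrays, and against each other, 9 relations in all. By Pearson's r 8 of the 9 passed at an adjusted p under 0.05, and by Spearman's rho 4, all of them relations of Tox3. The permutations treat the arrays as exchangeable and do not use the possible pairing by number. How many other genes follow these lists as closely was not counted. The 142 genes with a mean above 2 also varied together, from a median of 32.9% of the gene's mean on knockout 1 to 137% on wild-type 4. The relations are thus not shown to be particular to Foxa2 or Tox3. Tox3 followed the progenitor list with Pearson's r = 0.985 (exact permutation p = 2.2e-05, adjusted p = 9.92e-05, Spearman's rho = 0.95, exact permutation p = 0.000353, adjusted p = 0.00159). It followed the mitosis list with r = 0.98 (exact permutation p = 2.2e-05, adjusted p = 9.92e-05, rho = 0.967, exact permutation p = 0.000165, adjusted p = 0.00149). These relations held with the 2 arrays farthest from the median of the list left out, at r = 0.943 and r = 0.957 (exact permutation, adjusted p = 0.00714 each). They also held without knockout 1, at r = 0.957 and r = 0.958 (exact permutation, adjusted p = 0.00134 each). With the group means removed r was 0.972 and 0.959 (permutation across both genotypes, adjusted p = 0.000372 each). After that removal the arrays are not strictly exchangeable between genotypes, so these last p-values are approximate.

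The other relations of Tox3 did not pass without the end arrays or without knockout 1. With the Hedgehog list r was 0.90 (exact permutation p = 0.0011, adjusted p = 0.00329, rho = 0.867, exact permutation p = 0.00451, adjusted p = 0.0135). It was 0.80 without knockout 1 (exact permutation, adjusted p = 0.0583) and 0.732 over 7 arrays without knockout 1 and wild-type 4 (exact permutation, adjusted p = 0.167). With Gli1 r was 0.737 (exact permutation p = 0.0167, adjusted p = 0.0188, rho = 0.767, exact permutation p = 0.0214, adjusted p = 0.0481). It was 0.627 without knockout 1 (exact permutation, adjusted p = 0.16), 0.383 after quantile normalization (exact permutation, adjusted p = 0.305) and 0.335 over 7 arrays without knockout 1 and knockout 4 (exact permutation, adjusted p = 0.571).

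With Foxa2 taken as the average of its 10 features, its relations rested on knockout 1. Over 9 arrays r was 0.903 with the progenitor list (exact permutation p = 0.00244, adjusted p = 0.00549, rho = 0.717, exact permutation p = 0.0369, adjusted p = 0.0649), 0.825 with the mitosis list (exact permutation p = 0.0113, adjusted p = 0.0146, rho = 0.70, exact permutation p = 0.0433, adjusted p = 0.0649) and 0.778 with the Hedgehog list (exact permutation p = 0.0105, adjusted p = 0.0146, rho = 0.617, exact permutation p = 0.0857, adjusted p = 0.0964). With Gli1 it was 0.515 and did not pass (exact permutation p = 0.166, adjusted p = 0.166, rho = 0.183, exact permutation p = 0.644, adjusted p = 0.644). Without knockout 1 the 4 values were 0.744, 0.50, 0.52 and 0.0504, and none passed (exact permutation, adjusted p = 0.0778, 0.232, 0.232 and 0.903). With the 2 end arrays left out they were 0.613, 0.242, 0.338 and 0.287, and none passed (exact permutation, adjusted p = 0.324 to 0.602). Knockout 4 combined a high Foxa2 level (6.20) with a low mitosis mean (1.86), and its Foxa2 features were among those that disagreed. Its Foxa2 level was 5.69 by the median of the features and 5.32 by the last 5 features in the order of the table. The relations were not rerun on either, so how far they depend on the features that disagreed was not tested.

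Foxa2 and Tox3 correlated with each other at r = 0.888 over the 9 arrays (exact permutation p = 0.00583, adjusted p = 0.0105, rho = 0.633, exact permutation p = 0.076, adjusted p = 0.0964). With Foxa2 taken as the average of its features, this relation rested on knockout 1. Its r was 0.61 without knockout 1 (exact permutation, adjusted p = 0.16) and 0.438 without knockout 1 and wild-type 5 (exact permutation, adjusted p = 0.563). Within the 6 letter-titled arrays, which include knockout 1, all 9 relations had r between 0.818 and 0.999 (exact permutation, adjusted p = 0.025 to 0.0403). The 3 number-titled arrays are too few for a relation.

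**Figure D5:**
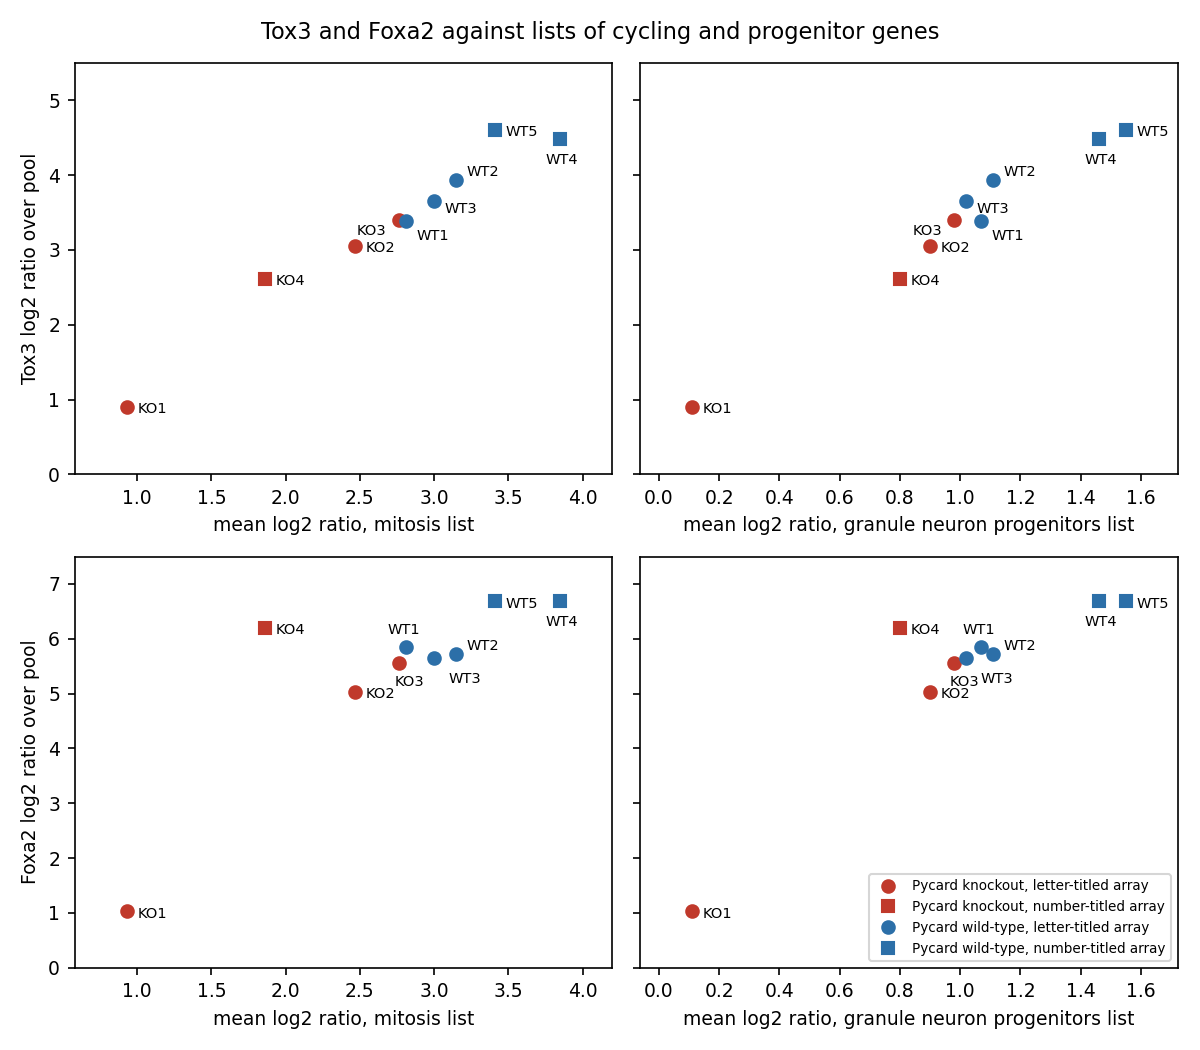
Log2 ratio over the pool of Tox3 (top) and Foxa2 (bottom) against the mean log2 ratio of the mitosis list (left) and the granule neuron progenitor list (right), with 1 point per array. Tox3 rises with both lists over all 9 arrays (r = 0.98 and 0.985), while for Foxa2 KO 1 lies alone at 1.03 and the other 8 arrays lie between 5.03 and 6.69.

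Genes with the pattern most like that of each gene over the 9 arrays were named by Pearson's r among 17596 genes, as a description. For Tox3 they were Cep55, a protein of the final cut of cell division (r = 0.993), Ypel1 (0.989), the nucleolar protein gene Nolc1 (0.988), the centromere motor gene Cenpe (0.987) and Sox11 (0.987). Without knockout 1 their r was between 0.959 and 0.98. For Foxa2 they were the adducin gene Add2 (0.947), the kinesin gene Kif18b (0.942), the somatostatin receptor gene Sstr2 (0.934), the prefoldin gene Pfdn6 (0.933) and the condensin gene Ncapg (0.93). Without knockout 1 their r was between 0.617 and 0.845, and 2774 was the lowest place that one of them, Pfdn6, took among the 17596 genes. Cep55 was at 0.89, 2.77, 3.06 and 2.31 on knockout arrays 1 to 4, against 3.25, 3.58, 3.23, 4.30 and 4.04 on wild-type arrays 1 to 5. All these points share their arrays and the common pool.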

How the data were processed

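RNA of cerebellum was hybridised to 9 Agilent 2-colour arrays, sample in Cy5 and pool in Cy3, after Trizol extraction and Quick Amp labelling, per the labels' protocols. The deposited values are log2 ratios of sample over pool, 1 per feature and array, with no missing cell. Base 2 was inferred, since each array has values beyond 4.82, the ceiling of log10 for ratios between 16-bit signals. Which channel is on top follows the dyes given in the labels. The submitters' processing notes name Agilent Feature Extraction, and its version, background correction and normalization were not given in the sources used here. For arrays, their number limits the precision.

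The platform's annotation gave 1 symbol to 33653 features, several to 56 and none to 11511, and 0 symbols changed through gene identifiers against RefSeq (GRCm38.p6). Features of 1 symbol were averaged and the rest kept singly, which gave 30654 values, 19087 of them named genes. The genotype contrast was fitted on all 9 arrays with no covariate (limma 3.58.1 under R 4.3.3, functions lmFit and eBayes, two-sided tests), and p-values were adjusted by Benjamini-Hochberg over all 30654 values at 0.05. The procedure was tested on simulated data. The moved values there had larger differences and smaller spreads than Foxa2 and Tox3, so that test does not bear on these genes. Fold over the pool is 2 to the power of the mean log2 ratio. Relations over arrays used exact two-sided permutation of pairings (scipy 1.17.1), adjusted over 9 relations. Intervals are at 95%.

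Named genes are the 7 members, Pycard, in each list up to 3 genes farthest from the pool and the 2 with the smallest p between genotypes, and the 5 genes most like Foxa2 and Tox3. Of the lists of mature cells, choroid plexus, endothelium and microglia only counts, median differences and single list means are printed. The members and lists were chosen with earlier results of these data known, including the lower mitosis genes in knockout, so such patterns are no independent support.

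Replicate numbers 1 to 4 occur in both genotypes. After removal of group means, arrays with the same number correlated at 0.244, 0.247, 0.446 and 0.304, all over 0.1, so the numbers were taken as a possible pairing, which the labels do not state. Knockout 2 correlated most with wild-type 1, and the other 3 with their own number. Alternatives were blocks on replicate number and title style, each array left out, letter-titled arrays alone, number-titled arrays alone, median centring, quantile normalization, features singly, an SD filter, exact zeros as missing, a trended robust prior, array weights and an adjusted p under 0.1. Chosen after seeing the data were the median over features, relations and lists without knockout 1, and relations within letter-titled arrays.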

Additional observations from a re-analysis of the deposited data

Results flagged for a closer look

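In 76 groups of 4 or 5 arrays, each array was set against the rest of its group, and 11 groups had an array farther from its neighbour than Dixon's 95% limit allows, where chance gives about 1 in 20. All 10 single Foxa2 features were lowest on knockout 1, and 4 of them passed the limit: feature 28177 at 0.94 (nearest 4.96), feature 29984 at 0.93 (nearest 5.53), feature 30625 at 1.29 (nearest 5.18) and feature 34971 at 1.23 (nearest 5.32). The Foxa2 average on knockout 1 had a Dixon ratio of 0.775, under the limit of 0.829 for 4 arrays. The features are not independent, since they share the array and the transcript. On wild-type 3 Foxa2 features 29984 (5.35, nearest 6.02) and 34971 (5.56, nearest 6.01) lay below the other wild-type arrays. Foxa3 on wild-type 5 was at 0.87, with the nearest wild-type array at -0.037. Tox feature 25219 on knockout 4 was at 0.26, with the nearest knockout array at 0.015. Among list means, the Purkinje cell list was at -0.97 on knockout 3 (nearest -0.35), the Tox partner list at 0.28 on wild-type 5 (nearest 0.14) and the lymphocyte list at 0.32 on wild-type 3 (nearest -0.025).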

How the results depend on the processing

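The 5 values called between genotypes became 0 with the replicate block (1868 with an unadjusted p under 0.05 in limma), 0 on letter-titled arrays alone (1065 such values) and 3 after quantile normalization. Leaving out 1 array gave 1 to 6 calls: 1 without knockout 1, knockout 2, wild-type 1, wild-type 2 or wild-type 5, 2 without knockout 4 or wild-type 4, 3 without knockout 3 and 6 without wild-type 3. No member passed in any of these settings. Foxa2 differed by -2.25 (without knockout 4) to -0.53 (without knockout 1), with adjusted p from 0.489 to 1.0 over 29 settings with a test, and by -1.08 after quantile normalization. Tox3 differed by -1.83 (without knockout 3) to -0.99 (without knockout 1), with adjusted p from 0.315 to 1.0 over 20 such settings. On number-titled arrays alone, with no test and no count of calls, they were -0.49 for Foxa2 and -1.93 for Tox3. Foxa3 stayed higher in knockout (0.057 without knockout 4 to 0.47 without wild-type 5). Foxa1 (-0.32 to 0.38 with 1 array left out) was higher in knockout without knockout 4 (0.38), wild-type 1 (0.15), wild-type 2 (0.037) or wild-type 3 (0.068). Tox (-0.13 to 0.11) was lower without knockout 4 (-0.13), wild-type 1 (-0.019) or wild-type 3 (-0.10), with array weights (-0.09) and by feature 14627 (-0.029). Tox4 (-0.034 to 0.014) was higher without wild-type 4 (0.014), on letter-titled arrays (0.029), after quantile normalization (0.0078) and with array weights (0.03). The cause was not tested. Of the 9 relations 8 passed by Pearson's r, 2 with the 2 end arrays left out and 2 without knockout 1. By Spearman's rho 4 passed, 1 with the end arrays left out, 2 without knockout 1 and 0 on letter-titled arrays, while 6 passed after quantile normalization, 3 of them with Foxa2. Without signal intensities the reliability of single ratios is unknown.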
